A study of Mus musculus with 12 samples.

Results

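HDAC3 loss in microglia after stroke was described by comparing the 3 miKO-tFCI with the 3 WT-tFCI libraries of a series of 12 libraries, over the 16451 of 55401 annotated genes that passed a filter on low counts. tFCI is transient focal cerebral ischemia, here an occlusion of the left middle cerebral artery for 60 min, and Sham animals had the surgery without the occlusion. Microglia were sorted as CD11b+ CD45int cells on day 3, and every replicate pooled cells from 3 to 4 ischemic hemispheres of male mice. WT mice were Cx3cr1 wt/wt:Hdac3 loxp/loxp. HDAC3-miKO mice (miKO) were Cx3cr1 CreER/wt:Hdac3 loxp/loxp. All groups thus carried floxed Hdac3. The deletion was induced with tamoxifen at 6 to 8 weeks of age, and surgery followed at least a month later. The methods do not say outright whether WT mice received tamoxifen too. The tamoxifen-inducible Cre sits in 1 allele of Cx3cr1, so the loss of Hdac3, the presence of Cre, the altered Cx3cr1 allele and any difference in tamoxifen cannot be told apart between miKO and WT. By the labels, batch 1 of the sequencing held replicate 1 of every group and batch 2 the other replicates. The methods name a Cytek Aurora and the labels a CytoFLEX SRT as the sorter. Levels are given as CPM, a gene's counts relative to the total of its library after scaling by the TMM method, in the order of replicates 1, 2 and 3. Each log2 fold change is miKO-tFCI over WT-tFCI from the edgeR fit with sequencing batch as a term, ± an SE, with 3 libraries per group. The SE was derived from the test, as the absolute log2 fold change divided by the square root of the F statistic.

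HDAC3 is the histone deacetylase of the NCoR corepressor complex, which nuclear receptors and other transcription factors bring to their target genes. Removal of acetyl groups at enhancers and promoters generally keeps such genes low, and HDAC3 also has deacetylase-independent roles in macrophages, where it takes part in inflammatory gene induction. Microglia are the resident macrophages of the brain. In the healthy brain they express a characteristic set of homeostatic genes, and after ischemia they turn on inflammatory, phagocytic and lipid-handling genes.

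The targeted gene, Hdac3, was at 54, 52.9 and 43.9 CPM in WT-tFCI against 36, 27.1 and 28.9 CPM in miKO-tFCI, lower in each miKO library than in each WT library (log2 fold change -0.71 ± 0.16, adjusted p = 0.0127). Reads from unexcised parts of the gene count towards this level, so it is no measure of the share of cells with the deletion. Within batches the difference in mean log2 CPM was -0.58 in batch 1 and -0.78 in batch 2. Ncor1, a corepressor that carries HDAC3, was at 165, 146 and 146 CPM in WT-tFCI against 140.2, 158 and 127 CPM in miKO-tFCI and did not pass the test (adjusted p = 0.649).

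The 6 tFCI libraries held 7697864 to 9452222 counts on genes. The 7 microglia markers checked (P2ry12, Tmem119, Cx3cr1, Sall1, Siglech, Csf1r and Aif1) summed to 9796 to 10329 CPM in WT-tFCI and 4263 to 7620 CPM in miKO-tFCI (4 of 7 called lower), the lowest value being miKO-tFCI replicate 1. Markers of other cells were also measured. The 6 neutrophil markers (S100a8, S100a9, Ly6g, Mpo, Elane and Retnlg) summed to 121 to 127 CPM in WT-tFCI and 537 to 653 CPM in miKO-tFCI, with 4 of 5 tested markers called higher and Ly6g, their defining surface marker, at most at 0.742 CPM in any tFCI library. The 6 border-associated macrophage markers summed to 141 to 247 CPM in WT-tFCI and 251 to 739 CPM in miKO-tFCI (2 of 6 called higher), and the 6 monocyte and macrophage markers to 340 to 569 CPM and 271 to 740 CPM (3 of 6 called higher), highest in replicate 1 of both genotypes. Fn1, the largest part of the monocyte sum in every tFCI library, was lower in miKO-tFCI without passing the test. Ccr2, Itga4 and Cd44 were called higher, and Ly6c2 and Plac8 were higher without passing the test. Astrocyte markers (1 of 4 called higher and 1 lower) reached 376 CPM in miKO-tFCI replicate 1 against 148 to 197 CPM in the other libraries of both genotypes, and endothelial markers (0 of 4 called) reached 155 CPM there. Oligodendrocyte markers (1 of 3 tested called higher) lay between 78.3 and 155 CPM, the T cell markers summed to at most 7.43 CPM with Cd3e, Cd3g, Trac and Cd8a at 0 in at least 1 library, and neuron and dendritic cell markers (0 called) stayed at or below 43.8 CPM. The 3 B cell markers summed to 29.0 to 35.9 CPM in WT-tFCI and 7.04 to 15.8 CPM in miKO-tFCI (1 of 2 tested called lower). Cd79b, the marker called lower, was the largest part of this sum in every tFCI library. Cd79a, at 2.87, 0.693 and 0.609 CPM in WT-tFCI against 6.2, 0.377 and 0.494 CPM in miKO-tFCI, did not pass the test (adjusted p = 0.725). The part of these cells in the results that follow was not tested. In bulk RNA, fewer cells of a type and less RNA per cell cannot be told apart. The plot of marker sums shows which libraries carried them.

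**Figure D1:**
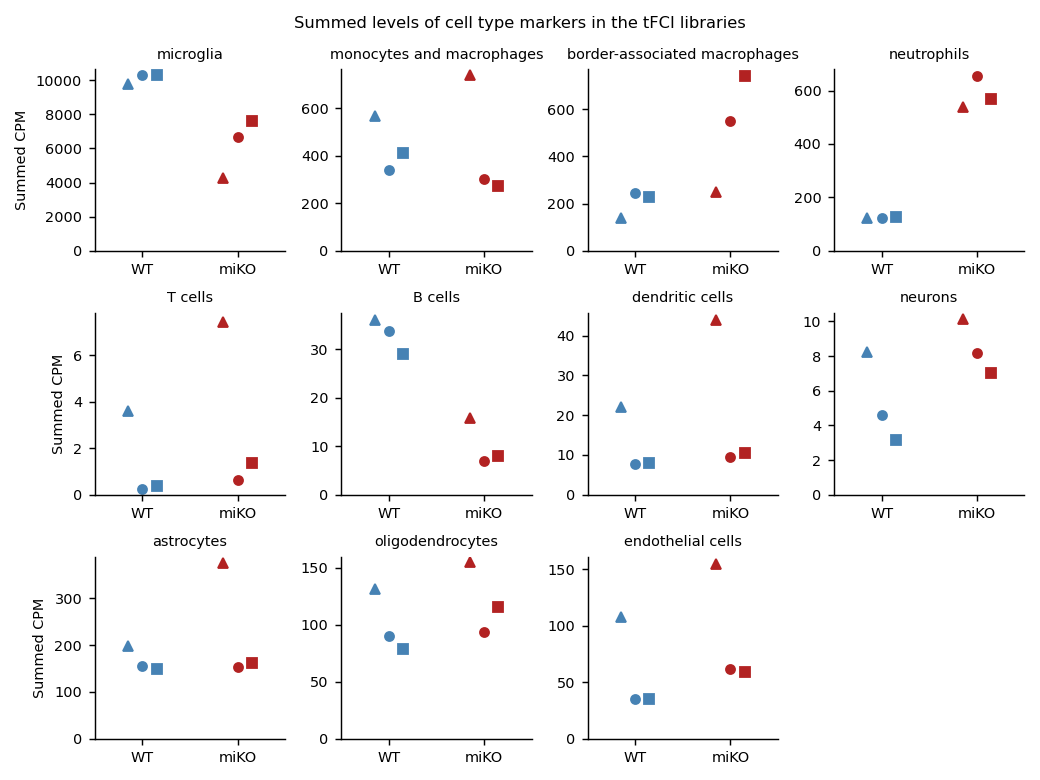
Summed CPM (y axis, each panel from 0) of the markers of 11 cell types in the 3 WT-tFCI (blue) and 3 miKO-tFCI (red) libraries, with a triangle for replicate 1 (batch 1), a circle for replicate 2 and a square for replicate 3 (batch 2). Neutrophil markers were higher in every miKO-tFCI library, whereas monocyte, dendritic cell, astrocyte and endothelial sums were highest in miKO-tFCI replicate 1.

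Across all genes tested, 1446 (8.79%) were called, for which the adjusted p had to be under 0.05 and the log2 fold change beyond 0.58 in either direction. Of them 671 (4.08% of genes tested) were higher and 775 (4.71%) lower in miKO-tFCI, and the median log2 fold change of all genes tested was 0.04. The CPM of the 2 groups did not overlap in 1168 of the called genes and in 3762 (22.9%) of all genes tested. The number called depended on the libraries, being 616 without WT-tFCI replicate 3, 700 without WT-tFCI replicate 2 and 917 without miKO-tFCI replicate 3. It was 701 with no batch term.

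The genes that fell most, among protein-coding genes with a mean of at least 5 CPM, were near the lower end of detection in miKO-tFCI. Csmd3, a large transmembrane protein with CUB and sushi domains, was at 53.9, 62.2 and 55.7 CPM in WT-tFCI against 0.929, 1.13 and 1.85 CPM in miKO-tFCI (log2 fold change -5.46 ± 0.22, adjusted p = 4.53e-09). Upk1b, a tetraspanin first known from the urothelium, stood at 38.1, 30.5 and 29.9 CPM in WT-tFCI against 1.55, 1.13 and 0.494 CPM in miKO-tFCI (log2 fold change -4.90 ± 0.33, adjusted p = 9.13e-07). For both genes every miKO library was far below every WT library. The potassium channel subunit Kcnk12 (-4.20), the secreted metalloprotease Adamts16 (-4.19), the sodium/calcium-potassium exchanger Slc24a1 (-3.24) and the unconventional myosin Myo18b (-3.07) followed, each at 3.14 CPM or less in every miKO-tFCI library.

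At the other end, the apolipoprotein Apoc1 was at 6.94, 5.77 and 7.43 CPM in WT-tFCI against 48, 174 and 161 CPM in miKO-tFCI (log2 fold change 4.17 ± 0.87, adjusted p = 0.00792), and the uncharacterized gene A530064D06Rik at 1.2, 3.81 and 1.95 CPM in WT-tFCI against 26.8, 38.6 and 45.7 CPM in miKO-tFCI (log2 fold change 3.98 ± 0.37, adjusted p = 1.54e-05). Mmp12, the macrophage metalloelastase, rose from 12.9, 10.2 and 6.95 CPM to 100.1, 116 and 182 CPM (log2 fold change 3.73 ± 0.34, adjusted p = 1.16e-05). None of these 3 genes overlapped between the groups, and Apoc1 was lower in miKO-tFCI replicate 1 than in the other 2 miKO libraries. Slfn4 (3.62), Lyz1 (3.60) and the neutrophil collagenase Mmp8 (3.28) followed. They were at 4.31 CPM or less in WT-tFCI, and Mmp8 and Slfn4, genes of neutrophils and monocytes, rose beside the neutrophil markers. The source of these rises was not tested. Lyz1 is a close copy of Lyz2, and reads shared by the pair make its own level uncertain.

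Genes were then grouped in 39 pathway and function lists. Leaving out at least 1 of the 6 tFCI libraries moved 44 of the 78 counts (higher and lower calls in each list) by over 1.5 times, mostly counts of 6 or fewer, so small counts are a description of these libraries. The plot of called shares sets each list beside the share over all genes tested.

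**Figure D2:**
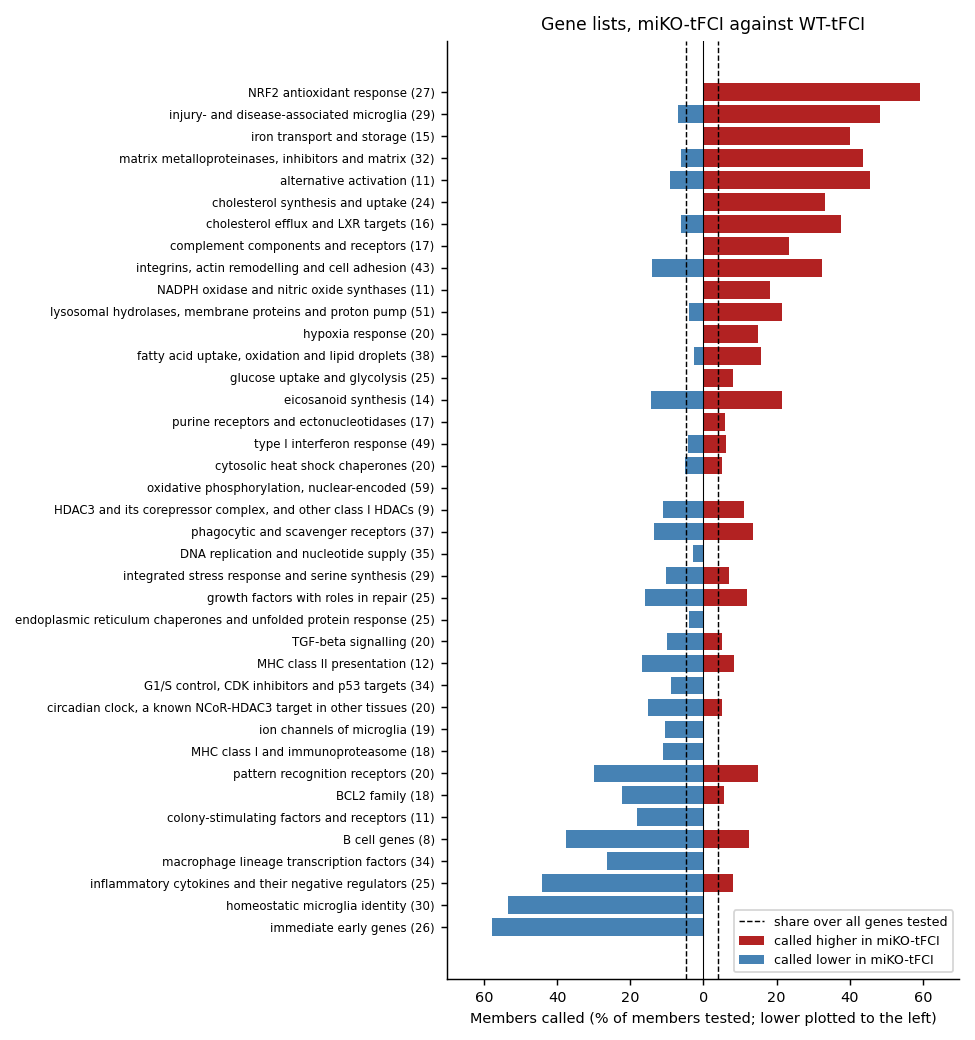
Share of tested members (x axis, %) called higher (red, right) and called lower (blue, left) in miKO-tFCI for 39 gene lists, with the number of members tested in brackets; dashed lines mark the shares over all genes tested (4.08% higher, 4.71% lower). Immediate early genes, homeostatic genes and cytokine genes had mostly lower calls, and NRF2, iron and injury-associated genes mostly higher calls.

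Homeostatic identity genes were lower after HDAC3 loss. Of 30 members tested, 16 fell and 0 rose, with a median log2 fold change of -0.80. Cx3cr1, the fractalkine receptor, was at 1449.7, 1554 and 1579 CPM in WT-tFCI against 291, 478 and 544 CPM in miKO-tFCI (log2 fold change -1.84 ± 0.18, adjusted p = 2.03e-05); its allele that carries CreER is present in miKO alone. Siglech, a sialic acid-binding lectin, was at 936, 892 and 831 CPM in WT-tFCI against 246, 263 and 286 CPM in miKO-tFCI (log2 fold change -1.74 ± 0.15, adjusted p = 9.26e-06), and the groups did not overlap. Tmem119, a microglial membrane protein, was at 1420.2, 1434 and 1529 CPM in WT-tFCI against 422, 689 and 729 CPM in miKO-tFCI (log2 fold change -1.29 ± 0.20, adjusted p = 0.00128). Olfml3, a secreted matrix protein of microglia, fell from 2557, 2691 and 2724 CPM to 777, 886 and 1018 CPM (log2 fold change -1.58 ± 0.14, adjusted p = 1.12e-05). For these 4 genes the miKO libraries all lay below the WT libraries. Sall1, the transcription factor that maintains microglial identity, fell less, from 160.0, 153 and 159 CPM to 65.9, 109.5 and 102 CPM (log2 fold change -0.78 ± 0.16, adjusted p = 0.00624), and Hpgd, which inactivates prostaglandins, had a log2 fold change of -1.83. P2ry12, the purinergic receptor that guides processes to injury, was at 997, 903 and 825 CPM in WT-tFCI against 454, 597 and 920.3 CPM in miKO-tFCI and did not pass the test (adjusted p = 0.14). Its level in miKO-tFCI replicate 3 lay within the WT range, and without that library it was called. The list's lower count was 15 to 18 under all 16 alternative settings.

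Transcription factors of the macrophage lineage moved the same way in part. Of 34 tested, 9 fell and 0 rose (median log2 fold change -0.36). Sall3, a relative of Sall1, was at 89.7, 91.3 and 94.7 CPM in WT-tFCI against 34.5, 50.5 and 39 CPM in miKO-tFCI (log2 fold change -1.15 ± 0.16, adjusted p = 0.000374). Klf2, which restrains inflammatory activation of myeloid cells, was at 718, 669.5 and 749 CPM in WT-tFCI against 284, 400.4 and 383 CPM in miKO-tFCI (log2 fold change -1.0 ± 0.18, adjusted p = 0.00272), and Mef2c, which acts in microglial maturation, at 337, 382 and 372 CPM in WT-tFCI against 145, 249 and 258 CPM in miKO-tFCI (log2 fold change -0.77 ± 0.16, adjusted p = 0.00776). The groups did not overlap for these 3 genes. Spi1, encoding PU.1, had a log2 fold change of -0.39 and did not pass the test (adjusted p = 0.0625).

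Injury-associated genes were higher as homeostatic genes were lower. Of 29 tested, 14 rose and 2 fell (median log2 fold change 0.84). Apoe, the main lipid-carrying apolipoprotein of the brain, was at 4658, 5386 and 5129 CPM in WT-tFCI against 13096, 34445 and 29398 CPM in miKO-tFCI (log2 fold change 2.35 ± 0.49, adjusted p = 0.00739). Lyz2, lysozyme M, was at 2010.3, 1493 and 1415 CPM in WT-tFCI against 6432, 9977 and 9563 CPM in miKO-tFCI (log2 fold change 2.43 ± 0.22, adjusted p = 1.16e-05). Lgals3, galectin-3, was at 443, 312 and 289 CPM in WT-tFCI against 1459.7, 1561 and 1444 CPM in miKO-tFCI (log2 fold change 2.14 ± 0.25, adjusted p = 0.000124). Apoe was lower in miKO-tFCI replicate 1 than in replicates 2 and 3, whereas Lgals3 was nearly level across the 3 miKO libraries. Gpnmb, a glycoprotein of lipid-laden phagocytes, was at 173, 33 and 36.9 CPM in WT-tFCI against 504, 264 and 279 CPM in miKO-tFCI (log2 fold change 2.38 ± 0.33, adjusted p = 0.000461), with the highest library of each group in batch 1. Itgax, which encodes CD11c, stood at 22.1, 15.9 and 17.5 CPM in WT-tFCI against 40.9, 43.4 and 44 CPM in miKO-tFCI (log2 fold change 1.22 ± 0.21, adjusted p = 0.00203). Not all members followed. Spp1, osteopontin, at 4927, 6827 and 6336 CPM in WT-tFCI against 7120.1, 15733 and 23976 CPM in miKO-tFCI, and Lpl, lipoprotein lipase, at 167, 185 and 177 CPM in WT-tFCI against 154, 356 and 360.0 CPM in miKO-tFCI, missed the threshold (adjusted p = 0.0934 and 0.0553), though Lpl was called higher in 10 and Spp1 in 4 of the 16 alternatives. Ch25h, cholesterol 25-hydroxylase, and Csf1 fell (-1.33 and -0.76). The plot of identity genes shows the per-library values. Higher calls in the list ranged from 10 to 17 over the 16 alternatives.

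**Figure D3:**
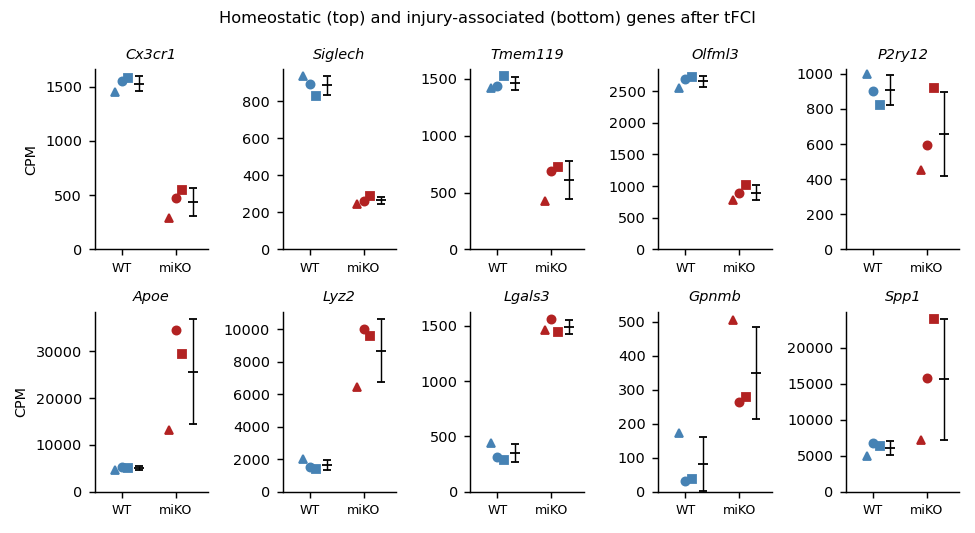
CPM (y axis, each panel from 0) of 5 homeostatic genes (top) and 5 injury-associated genes (bottom) in the tFCI libraries, WT blue and miKO red; triangles are replicate 1 (batch 1), circles replicate 2 and squares replicate 3, and black bars give mean ± SD (n = 3). P2ry12 overlapped between the groups, and the other 9 genes did not.

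Lipid handling and lysosomes showed mixed and mostly smaller changes. Of 38 genes of fatty acid uptake, oxidation and lipid droplets, 6 rose and 1 fell (median 0.29). Plin2, the protein coat of lipid droplets, was at 792, 991 and 911 CPM in WT-tFCI against 1956, 3279 and 3478 CPM in miKO-tFCI (log2 fold change 1.69 ± 0.31, adjusted p = 0.00363). Fabp5, a fatty acid-binding protein, was at 206, 78.7 and 69.3 CPM in WT-tFCI against 576, 297 and 284 CPM in miKO-tFCI (log2 fold change 1.79 ± 0.30, adjusted p = 0.00186), and Angptl4, a secreted inhibitor of lipoprotein lipase, at 40.3, 22.6 and 27.3 CPM in WT-tFCI against 107, 58.2 and 55 CPM in miKO-tFCI (log2 fold change 1.27 ± 0.26, adjusted p = 0.00709). Plin2 was highest in replicates 2 and 3 and Fabp5 and Angptl4 in replicate 1, so the lipid genes did not share 1 pattern across the miKO libraries. Mgll, monoacylglycerol lipase, fell (-1.47). The higher calls of the lipid list were 3 without WT-tFCI replicate 2 and 3 with no batch term. Of 51 lysosomal genes, 11 rose and 2 fell (median 0.13). Ctsb, cathepsin B, was at 9166, 11918 and 11339 CPM in WT-tFCI against 13172, 22755 and 27799 CPM in miKO-tFCI (log2 fold change 0.95 ± 0.20, adjusted p = 0.00745). Lipa, the acid lipase that frees cholesterol from lipoproteins, was at 143, 139 and 152 CPM in WT-tFCI against 197, 298 and 377 CPM in miKO-tFCI (log2 fold change 0.99 ± 0.18, adjusted p = 0.00297), while Ctsf, cathepsin F, fell to 96.3, 99.4 and 109 CPM from 237, 266 and 268 CPM (log2 fold change -1.34 ± 0.12, adjusted p = 1.12e-05). The number of lysosomal genes called higher went as low as 3 without WT-tFCI replicate 3, and was 4 without WT-tFCI replicate 2, 5 without miKO-tFCI replicate 2, 6 without WT-tFCI replicate 1, 7 without miKO-tFCI replicate 3 and 4 with no batch term.

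Inflammatory cytokines and their feedback regulators were mainly lower. Of 25 tested, 11 fell and 2 rose (median -0.65). Tnf, tumour necrosis factor, was at 382, 685 and 683 CPM in WT-tFCI against 188, 344 and 364 CPM in miKO-tFCI (log2 fold change -0.97 ± 0.23, adjusted p = 0.0163). Il1a was at 434, 667 and 614 CPM in WT-tFCI against 172, 270.1 and 390.0 CPM in miKO-tFCI (log2 fold change -1.07 ± 0.18, adjusted p = 0.00209), and Nlrp3, the inflammasome sensor, at 81.8, 129.8 and 129.8 CPM in WT-tFCI against 35.7, 64.3 and 53.1 CPM in miKO-tFCI (log2 fold change -1.16 ± 0.16, adjusted p = 0.000361). The groups did not overlap for these 3 genes, and libraries of batch 1 were the lowest of their own group. Il1b, at 410.5, 532 and 491 CPM in WT-tFCI against 524, 224 and 229 CPM in miKO-tFCI, did not pass the test (adjusted p = 0.0996): within batch 2 the miKO libraries were lower, and in batch 1 the miKO library was higher. Zc3h12a, an RNase that degrades cytokine mRNAs, was at 74.6, 87.1 and 106 CPM in WT-tFCI against 27.5, 39.8 and 37.9 CPM in miKO-tFCI (log2 fold change -1.35 ± 0.18, adjusted p = 0.000297). Tnfsf9, a costimulatory ligand, was at 51, 105 and 91.6 CPM in WT-tFCI against 26.4, 17.1 and 22 CPM in miKO-tFCI (log2 fold change -1.92 ± 0.27, adjusted p = 0.000401), and Osm, oncostatin M, had a log2 fold change of -0.85 (0.00317 as its adjusted p). The decoy receptor Il1r2 rose from 35.3, 4.96 and 5.24 CPM to 143, 31.8 and 29 CPM (log2 fold change 2.27 ± 0.44, adjusted p = 0.00496), with both batch 1 libraries the highest of their group.

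Nfkbia and Tnfaip3, taken up after their values were seen, encode the inhibitor IkB-alpha and the ubiquitin-editing enzyme A20, which restrain NF-kB, a transcription factor that drives cytokine genes. Nfkbia was at 1598, 2140.1 and 2044 CPM in WT-tFCI against 933, 978 and 944 CPM in miKO-tFCI (log2 fold change -1.01 ± 0.14, adjusted p = 0.000385), and Tnfaip3 at 478, 744 and 823 CPM in WT-tFCI against 167, 321 and 417 CPM in miKO-tFCI (log2 fold change -1.21 ± 0.21, adjusted p = 0.00214). Among 20 pattern recognition receptors, 6 fell and 3 rose (3 fell with no batch term). Tlr2 was at 475, 821 and 792 CPM in WT-tFCI against 214, 344 and 420.4 CPM in miKO-tFCI (log2 fold change -1.10 ± 0.22, adjusted p = 0.00658), Tlr1, its partner, had -1.25 and the LPS co-receptor Cd14 -0.73 as log2 fold change. The C-type lectins went the other way: Clec4n (2.60), Clec4d (2.07) and Clec4e (1.87) rose. Tlr4, at 29.7, 33.1 and 34.5 CPM in WT-tFCI against 16.7, 32.3 and 53.1 CPM in miKO-tFCI, did not pass the test (adjusted p = 0.968).

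Immediate early genes, the first transcripts made after a stimulus, were likewise lower. Of 26 tested, 15 fell and 0 rose (median -0.77). Nr4a1, an orphan nuclear receptor, was at 528, 444 and 548 CPM in WT-tFCI against 220.3, 96.3 and 93.4 CPM in miKO-tFCI (log2 fold change -1.98 ± 0.21, adjusted p = 5.95e-05). Egr1, a zinc finger transcription factor, was at 1177, 1332 and 1422 CPM in WT-tFCI against 433, 606 and 690.4 CPM in miKO-tFCI (log2 fold change -1.21 ± 0.17, adjusted p = 0.000517), and Jun, an AP-1 subunit, at 1424, 1677 and 1798 CPM in WT-tFCI against 634, 994 and 901 CPM in miKO-tFCI (log2 fold change -0.97 ± 0.16, adjusted p = 0.00137). The groups did not overlap for these genes. Dusp2, a phosphatase that switches off MAP kinases, and Maff, a small Maf protein, had log2 fold changes of -1.58 and -1.50. Fos, the AP-1 partner of Jun, was at 2832, 2589.7 and 2758 CPM in WT-tFCI against 1712, 1910.2 and 1844 CPM in miKO-tFCI and had an adjusted p of 0.0311, but its fold change lay just inside the limit and it was not called. The serum response element, the site of the factor SRF in many such genes, was found on either strand in 5 of 18 promoters of the called members, which belong to 2 of the 12 genes matched, and in 1.63% of all promoters. Among all members of the list it was in 6 of 28 promoters. These members were chosen as immediate early genes, so the contrast with all promoters is no test. The list kept 11 to 17 lower calls over all 16 alternatives and 0 higher calls. Fos, Egr1 and Jun were higher in each WT-Sham library than in each WT-tFCI library, while Nr4a1, Dusp2 and Maff were lower. By the methods, brain tissue was minced and digested with enzymes before sorting, and the part of these steps in the levels was not tested.

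**Figure D4:**
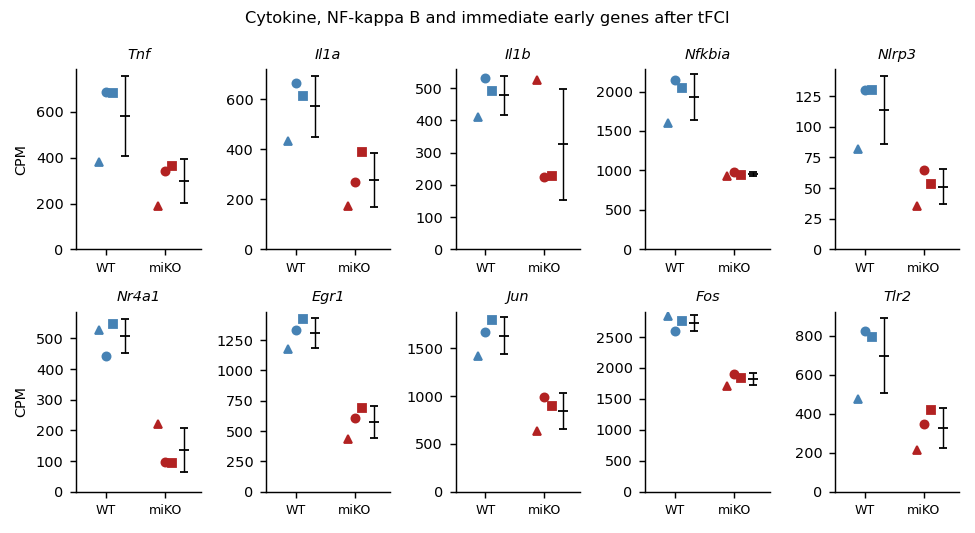
CPM (y axis, each panel from 0) of 10 cytokine, NF-kB pathway and immediate early genes in the tFCI libraries, WT blue and miKO red; triangles are replicate 1 (batch 1), circles replicate 2 and squares replicate 3, and black bars give mean ± SD (n = 3). All but Il1b had 3 miKO libraries below the 3 WT libraries.

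The kB motif, the site that NF-kB dimers bind, was looked for in the 300 bases from 250 before to 50 after the RefSeq start sites (GRCm38.p6), on both strands. It was present in 1480 of 32851 promoters (4.51%) of all genes and in 6 of 24 promoters of all cytokine list members. Of the promoters of called members, 5 of 13 held it (4 of the 10 genes matched). Among them are promoters of genes whose levels are given above. Their stretches upstream of the start site are shown with the match in capitals, with 20 bases before it and up to 20 after, to let the lower inhibitor and inflammasome genes be set beside their sequence:
Nfkbia (chr12:55492648-55492696, minus strand): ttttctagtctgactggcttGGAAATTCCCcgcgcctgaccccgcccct
Tnfaip3 (chr10:19015506-19015555, minus strand): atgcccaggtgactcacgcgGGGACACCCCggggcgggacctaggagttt
Nlrp3 (chr11:59541363-59541412, plus strand): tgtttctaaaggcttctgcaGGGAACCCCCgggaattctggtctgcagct
The cytokine list was written as inflammatory genes and their negative regulators, with earlier results of these data known, so the contrast with all promoters is no test. A match describes the letters only and does not show that a factor is bound there in these cells.

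NRF2 target genes, which make glutathione and thioredoxin antioxidants, were higher. Of 27 tested, 16 rose and 0 fell (median log2 fold change 0.72). Prdx1, a peroxiredoxin, was at 641, 562 and 495 CPM in WT-tFCI against 1649, 1699.7 and 1923 CPM in miKO-tFCI (log2 fold change 1.65 ± 0.18, adjusted p = 7.62e-05). Srxn1, sulfiredoxin, which repairs oxidized peroxiredoxins, was at 26.7, 23.4 and 19.2 CPM in WT-tFCI against 56.5, 98.4 and 106 CPM in miKO-tFCI (log2 fold change 1.86 ± 0.27, adjusted p = 0.000522). Gclm, a subunit of the first enzyme of glutathione synthesis, was at 26.9, 18.1 and 25.3 CPM in WT-tFCI against 55.3, 54.7 and 81.9 CPM in miKO-tFCI (log2 fold change 1.44 ± 0.19, adjusted p = 0.00029). Slc7a11, the cystine transporter, was at 76.2, 27 and 24.7 CPM in WT-tFCI against 165, 87 and 94.5 CPM in miKO-tFCI (log2 fold change 1.52 ± 0.25, adjusted p = 0.00173). The groups did not overlap in any of these 4 genes. Gpx3 (1.66) and Me1 (2.25) also rose, with replicate 1 of both genotypes the highest library. Txnrd1, thioredoxin reductase, passed with a small change (log2 fold change 0.60 ± 0.18, adjusted p = 0.0422). The factor itself, Nfe2l2, was at 308, 429 and 408 CPM in WT-tFCI against 257, 350.5 and 385 CPM in miKO-tFCI and did not pass the test (adjusted p = 0.5), nor did Hmox1, heme oxygenase (0.45, adjusted p = 0.241), or Nqo1, a quinone reductase (1.29, adjusted p = 0.181). Without WT-tFCI replicate 2, and likewise without replicate 3, 8 members were called higher, and 9 were with no batch term.

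The core of the antioxidant response element, TGACNNNGC on either strand, is the sequence through which NRF2 and small Maf proteins act. It was found in 7 of 20 promoters of the called NRF2 members (7 of the 14 genes matched) and in 10 of 33 promoters of all list members (30.3%). Over all genes it was in 4071 of 32851 promoters (12.4%). The list was written as NRF2 target genes, so the contrast with all genes is no test. Stretches from 3 of the genes that rose are shown with the core in capitals:
Prdx1 (chr4:116685446-116685494, plus strand): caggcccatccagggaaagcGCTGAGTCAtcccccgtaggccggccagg
Gclm (chr3:122245403-122245451, plus strand): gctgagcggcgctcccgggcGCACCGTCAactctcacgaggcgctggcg
Txnrd1 (chr10:82859094-82859142, plus strand): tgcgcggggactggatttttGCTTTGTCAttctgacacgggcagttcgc
In all 3 the core lies on the strand opposite to the gene.

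Iron genes were higher in part. Of 15 tested, 6 rose and 0 fell (median 0.50). Fth1, the ferritin heavy chain, was at 6592, 5067 and 4937 CPM in WT-tFCI against 12134, 13579 and 12035 CPM in miKO-tFCI (log2 fold change 1.21 ± 0.20, adjusted p = 0.00175). Slc11a1, an endosomal metal transporter of macrophages, was at 198, 227 and 231 CPM in WT-tFCI against 367, 587 and 589 CPM in miKO-tFCI (log2 fold change 1.22 ± 0.16, adjusted p = 0.000297), and the transferrin receptor Tfrc at 7.18, 11.2 and 12.2 CPM in WT-tFCI against 17.8, 21 and 26.8 CPM in miKO-tFCI (log2 fold change 1.12 ± 0.19, adjusted p = 0.00233). Every miKO library was above every WT library for these genes. Lcn2, lipocalin-2, which neutrophils and astrocytes also make, was at 22, 23.4 and 21 CPM in WT-tFCI against 171, 119 and 100.0 CPM in miKO-tFCI (log2 fold change 2.48 ± 0.51, adjusted p = 0.0068). The neutrophil marker sum was higher too, with Ly6g at most at 0.742 CPM in any tFCI library. The source of the Lcn2 rise was not tested. Cp, ceruloplasmin, had a log2 fold change of 1.51. With no batch term 3 members were called higher. The exporter Slc40a1, ferroportin, did not pass the test (0.67, adjusted p = 0.105).

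Cholesterol synthesis and uptake were higher in part. Of 24 tested, 8 rose and 0 fell (median 0.43). Sqle, squalene epoxidase, was at 14.5, 8.08 and 5.73 CPM in WT-tFCI against 22.8, 21.6 and 21.8 CPM in miKO-tFCI (log2 fold change 1.25 ± 0.32, adjusted p = 0.0237), and its groups did not overlap. Hmgcs1, an early enzyme of the pathway, and Srebf2, its transcription factor, missed the threshold (adjusted p = 0.105 and 0.199). The count of higher calls depended on the libraries, falling to 1 without WT-tFCI replicate 2, to 2 without WT-tFCI replicate 3 or miKO-tFCI replicate 3, and to 3 without miKO-tFCI replicate 1, with batch 2 alone or with no batch term. It was 4 without WT-tFCI replicate 1. Of 16 genes of cholesterol efflux and LXR, 6 rose and 1 fell (median 0.52), with Apoc1 and Apoe among those that rose. The higher calls of the efflux list were 2 without WT-tFCI replicate 2, 2 without WT-tFCI replicate 3 and 3 without miKO-tFCI replicate 3. The core of the sterol response element, TCACNCCAC on either strand, was in 0 of 6 promoters of the called synthesis and uptake genes (6 of 8 matched) and in 1.24% of all promoters, which says only that these letters are not in those windows. The transporters Abca1 and Abcg1 and the receptor Nr1h3 did not pass the test (adjusted p = 0.32, 0.352 and 0.221).

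**Figure D5:**
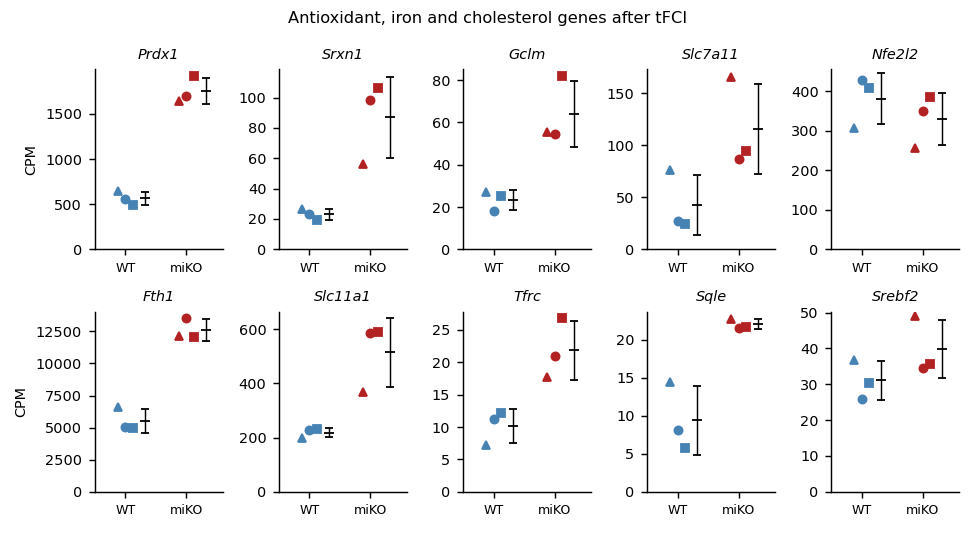
CPM (y axis, each panel from 0) of 10 antioxidant, iron and cholesterol genes in the tFCI libraries, WT blue and miKO red; triangles are replicate 1 (batch 1), circles replicate 2 and squares replicate 3, and black bars give mean ± SD (n = 3). The 8 called genes with non-overlapping groups sit beside Nfe2l2 and Srebf2, whose groups overlapped.

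Matrix and adhesion genes changed in both directions. Of 32 matrix genes tested, 14 rose and 2 fell (median 1.04). The higher calls were 9 without WT-tFCI replicate 2, 9 without WT-tFCI replicate 3 and 5 with no batch term. Adamts1, a matrix protease, fell from 334, 397 and 411 CPM to 69.8, 99.9 and 114 CPM (log2 fold change -2.02 ± 0.14, adjusted p = 9.13e-07), against the rise of Mmp12. Timp1, an inhibitor of metalloproteinases, was at 88.9, 16.7 and 21 CPM in WT-tFCI against 182, 53.5 and 54.4 CPM in miKO-tFCI (log2 fold change 1.35 ± 0.19, adjusted p = 0.000465), with both batch 1 libraries the highest of their group. Astrocyte and endothelial markers were likewise highest in batch 1, and their part in the matrix result was not tested. Among 43 genes of migration and adhesion, 14 rose and 6 fell. Here the higher calls were 9 without WT-tFCI replicate 2, 8 without WT-tFCI replicate 3 and 5 with no batch term. Itgal, the alpha chain of LFA-1, was at 4.43, 3 and 5 CPM in WT-tFCI against 22.6, 23.4 and 17.9 CPM in miKO-tFCI (log2 fold change 2.36 ± 0.37, adjusted p = 0.0011), Cd44, the hyaluronan receptor, at 45.1, 27.5 and 30.9 CPM in WT-tFCI against 127, 119 and 99.4 CPM in miKO-tFCI (log2 fold change 1.76 ± 0.16, adjusted p = 1.12e-05), and Anxa1, annexin A1, at 48.4, 12.6 and 15.3 CPM in WT-tFCI against 140.0, 58.4 and 93.6 CPM in miKO-tFCI (log2 fold change 2.09 ± 0.40, adjusted p = 0.005). Icam1, the ligand of LFA-1, fell (log2 fold change -1.01 ± 0.13, adjusted p = 0.000262). Cd44 stands on the monocyte marker list, and Itgal is also expressed by other leukocytes.

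Alternative activation genes rose in 5 of 11 tested, with 1 fall. Arg1, arginase-1, was at 47.5, 16 and 17.7 CPM in WT-tFCI against 234, 121 and 130.5 CPM in miKO-tFCI (log2 fold change 2.63 ± 0.33, adjusted p = 0.000206) and Chil3 at 117, 48.5 and 44.5 CPM in WT-tFCI against 304, 239 and 311 CPM in miKO-tFCI (log2 fold change 2.23 ± 0.54, adjusted p = 0.0184). Both are high in infiltrating monocytes, whose receptor Ccr2 had a log2 fold change of 2.16. Of the 6 monocyte and macrophage markers 3 were called higher, while Fn1, the largest part of their sum, had -0.96 without passing the test. The part of monocytes in the Arg1 and Chil3 levels was not tested. Mrc1, the mannose receptor, did not pass the test (adjusted p = 0.205). The list fell to 1 higher call without any single WT-tFCI library, without miKO-tFCI replicate 3 or with no batch term, and to 3 without miKO-tFCI replicate 2. Of 37 phagocytic and scavenger receptors, 5 rose and 5 fell. Without 1 tFCI library each, 2 to 6 rose and 3 to 5 fell. Cd300a, an inhibitory receptor for phospholipids of dying cells, was at 129.6, 127 and 122 CPM in WT-tFCI against 254, 302 and 327 CPM in miKO-tFCI (log2 fold change 1.22 ± 0.14, adjusted p = 7.17e-05), Axl rose by 0.85 and Msr1 by 1.32, Fcgr2b fell (-0.66), and Mertk did not pass the test (adjusted p = 0.216).

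Several smaller systems held called genes. Of 17 complement genes, 4 rose and 0 fell, C3 (1.36) and Serping1 (1.84) among them, both highest in batch 1. The higher calls were 2 without WT-tFCI replicate 2, WT-tFCI replicate 3 or miKO-tFCI replicate 1, and 1 with no batch term. Of 18 BCL2 family genes, 4 fell and 1 rose, and 1 fell without WT-tFCI replicate 2 or WT-tFCI replicate 3. Bbc3 was at 64.8, 72.2 and 72.6 CPM in WT-tFCI against 21.1, 39.1 and 30.5 CPM in miKO-tFCI (log2 fold change -1.23 ± 0.17, adjusted p = 0.000383), Bcl2a1d had -0.79 and Bcl2l1 0.65. In eicosanoid synthesis, 3 of 14 rose and 2 fell (1 rose without WT-tFCI replicate 2, without WT-tFCI replicate 3 or with no batch term), with Pla2g7 (2.06) and Ptgs1 (0.80) higher and Alox5 (-1.02) lower. Of 29 genes of the integrated stress response and serine synthesis, 2 rose and 3 fell (median 0.07), with 0 to 4 higher and 2 to 3 lower calls over the alternatives. Phgdh, the first enzyme of serine synthesis, was at 258, 312 and 318 CPM in WT-tFCI against 122, 126 and 116 CPM in miKO-tFCI (log2 fold change -1.28 ± 0.15, adjusted p = 8.25e-05). Of 20 circadian clock genes tested, 1 rose and 3 fell (median 0.11). Per1, a clock repressor, was at 126, 132 and 146 CPM in WT-tFCI against 51.9, 62.1 and 42.6 CPM in miKO-tFCI (log2 fold change -1.37 ± 0.18, adjusted p = 0.000301), while Nr1d1, which recruits NCoR and HDAC3 at clock genes, rose (0.85). The clock list had 0 higher calls with batch 2 alone and without WT-tFCI replicate 1, WT-tFCI replicate 2 or miKO-tFCI replicate 1. B cell genes went both ways, with 1 higher and 3 lower of 8 tested. Their log2 fold changes ran from -2.09 to 3.15 (median 0.16). Over the alternatives this list had 0 to 2 higher calls and 3 lower calls. Cd79b and Blnk, genes of the B cell receptor pathway, fell (log2 fold change -2.09 ± 0.38, adjusted p = 0.00343 for Cd79b, and -1.07 for Blnk). Ms4a1 was at 0 in at least 1 library. Among 25 growth factor genes, 3 rose and 4 fell (0 to 2 rose and 1 to 3 fell without 1 tFCI library each), with Igf1 at 30.9, 35.5 and 38.3 CPM in WT-tFCI against 45.7, 80.4 and 86.1 CPM in miKO-tFCI (log2 fold change 1.00 ± 0.22, adjusted p = 0.00974). Of 19 ion channel genes 0 rose and 2 fell, and the potassium channel Kcnma1 had a log2 fold change of -2.77.

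No gene of oxidative phosphorylation was called among 59 tested, whose log2 fold changes ran from -0.28 to 0.52 (median 0.06). Of 49 interferon-response genes, 3 rose and 2 fell (median 0.17), with Ifi47 (1.86) higher and Ifi27l2a (-1.13) lower. Of 18 MHC class I genes 2 fell, H2-K1 among them (-0.67), and of 12 MHC class II genes 1 rose and 2 fell. The counts were 2 higher of 25 for glycolysis, 3 higher of 20 for hypoxia and 0 higher with 1 lower of 25 for endoplasmic reticulum chaperones. Of 35 replication genes 1 fell and of 17 purine receptor genes 1 rose.

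For some of these genes the genotype difference after tFCI departed from that after Sham. The interaction of genotype and surgery had an adjusted p under 0.05 in 629 genes (3.82%), and in 207 of the 1446 called genes. Tnf was higher in miKO than in WT after Sham (log2 fold change 2.21) and lower after tFCI, an interaction of -3.18 (adjusted p = 0.00014). In WT-Sham it was at 66.6, 93 and 70.3 CPM and in miKO-Sham at 388, 392 and 252 CPM. Apoe rose more after Sham, at 1512, 978 and 897 CPM in WT-Sham and 64078, 65549 and 12774 CPM in miKO-Sham (interaction -3.04, adjusted p = 0.0199). The labels put miKO-Sham replicate 2 in batch 2, yet its counts lay closest to those of replicate 1 of batch 1. That bears on every value with a Sham term.

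Genes that overlap another gene on the other strand share reads with it, since the library kit does not mark strand. This applies to 393 of the 1446 called genes, and, among the genes given values, to Ncor1, Mmp12, Myo18b, Cx3cr1, P2ry12, Ch25h, Mgll, Ctsb, Il1a, Il1b, Tnfsf9, Jun, Gclm, Me1, Cp, Hmgcs1, Icam1, Fcgr2b, Nr1d1, Pla2g7, Ptgs1, Kcnma1 and Ifi47. Bcl2a1d, Ifi27l2a and H2-K1 have close copies in the genome, so their counts are uncertain as well.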

How the data were processed

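RNA-seq counts per gene were deposited by the authors without normalization, 1 table per library. The submitters' processing notes name FastQC 0.11.9, Trim Galore, HISAT2 2.2.1, SAMtools and HTSeq 1.99.2 and the builds mm10 and GRCm38.p6, with no role or order given. Of the reads listed, 30.7% to 38.5% lay on genes, and the lines for reads on no gene (45.3% to 52.5%), ambiguous, unaligned or poorly aligned reads were left out. The tools were edgeR 4.0.16 in R 4.3.3, with filterByExpr, TMM factors (0.864 to 1.11) and a quasi-likelihood fit of group and sequencing batch over all 12 libraries, with Benjamini-Hochberg adjustment. A call needed an adjusted p under 0.05 and a log2 fold change beyond 0.58 in either direction. At 7697864 to 9452222 counts per tFCI library, no fold was given against groups at 3 counts or fewer. The biological coefficient of variation was 0.199. Symbols came from GENCODE M21, matched to 55141 of 55401 identifiers, and promoters from RefSeq.

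Named genes were Hdac3, the 6 protein-coding genes with the largest rise and 6 with the largest fall whose mean was at least 5 CPM and whose batch-adjusted groups did not overlap, and in each list its key genes and up to 4 called members with the largest change (mean of at least 5 CPM). Members, lists and rules were chosen with earlier results of these data known. The main fit did not pair replicates. A block for same-numbered replicates was run as an alternative, because their deviations from group means correlated at 0.666, 0.334 and 0.324. Replicate 1 is batch 1, and replicates of batch 2 with different numbers correlated as much (0.395 and 0.327). After adjustment for batch the same-numbered pairs had 0.151, 0.0716 and -0.0269, so the numbers may mark no more than the batch. Alternatives were DESeq2 1.42.0, RLE size factors, other filters, other sets of libraries and other terms. Steps were tested on simulated data. Some genes are not reported here.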

Additional observations from a re-analysis of the deposited data

Results flagged for a closer look

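The following differences between genotypes after tFCI and after Sham were given by the interaction term of the edgeR fit (log2 fold change after tFCI minus that after Sham, adjusted p under 0.05); no explanation was tested, and no value is given for genes at 3 counts or fewer in every library of a group. Among the most changed genes they were 2.49 for Upk1b and -3.29 for Slc24a1. Of the injury, lipid and identity genes, Olfml3 had -0.912, Apoe -3.04, Lyz2 -1.58, Csf1 -1.25, Plin2 -2.16, Ctsb -1.05, Abcg1 -1.04, Axl -2.07 and Cd44 -2.10. The inflammatory genes had -3.18 for Tnf, -1.63 for Il1a, -3.68 for Il1b, -1.01 for Nfkbia, -1.30 for Zc3h12a, -1.45 for Nlrp3, -2.89 for Tnfsf9, -1.76 for Osm, -1.18 for Maff, -2.15 for Tlr2, -0.942 for Cd14 and -0.849 for Icam1. Antioxidant and iron genes gave -1.16 for Nfe2l2, 2.82 for Gpx3 and 1.98 for Cp. Further values were -1.94 for Nr1d1, -2.76 for Bcl2a1d and -2.56 for Ifi27l2a.

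Each of these rests on Sham libraries in which miKO-Sham replicates 1 and 2, labelled as different batches, were by chi-square the closest pair of replicates (2.82 per degree of freedom, against 3.65 to 76.6 for the other 11 pairs). Their log2 CPM correlated at 0.976, below replicates 2 and 3 of WT-Sham (0.981) and of WT-tFCI (0.980).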

How the results depend on the processing

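Of the 101 called genes given values, 63 kept their call in all 16 alternatives, and 0 changed direction. In 121 of the 1616 pairs of called gene and alternative the call was lost, with the direction kept, most often for C3, Ifi47 and Txnrd1 (7 each). Of the 19 genes not called, 9 were called in 34 pairs of gene and alternative, among them Lpl in 10, Il1b and Slc40a1 in 5 each and Spp1 in 4. Tlr4, also not called, changed direction in 4 alternatives, at -0.0092 with no filter on low counts, -0.0329 with only the 6 tFCI libraries, -0.03 without WT-tFCI replicate 2 and -0.40 without miKO-tFCI replicate 3. Without 1 library each its log2 fold change lay between -0.40 and 0.35, the latter without miKO-tFCI replicate 1 and in the reported direction.

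The number of genes called was 2193 with no filter on low counts (1200 higher), 2535 with only the 6 tFCI libraries (1542 higher) and 701 with no batch term (213 higher and 488 lower). Without 1 tFCI library each it ranged from 616 to 1315, with 212 to 571 higher and 404 to 744 lower, and without miKO-Sham replicate 2 it was 1657 (824 higher and 833 lower), a setting added once the data had been seen. The lowest values came without WT-tFCI replicate 3, followed by WT-tFCI replicate 2 (700) and miKO-tFCI replicate 3 (917). These fits hold fewer libraries, and the cause of the remaining differences was not tested. Without the 3 miKO-Sham libraries, chosen likewise, 1037 genes were higher. With the replicate block in place of batch, 1429 genes were called (635 higher and 794 lower), and 0 of the 101 named calls were lost, and pairing the replicates moved none of these counts over all genes by more than 1.5 times. Of the lists' higher calls it moved heat shock genes and TGF-beta genes from 1 to 2 and B cell genes from 1 to 0. At this depth, genes with few counts carry large counting error.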
